A study of Mus musculus with 10 samples.

Results

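Disease-associated microglia are a state of the brain's resident macrophages, described first around amyloid plaques, in which genes for lipid handling, phagocytosis and lysosomes are raised. The 10 genes examined here, Apoe, Trem2, Tyrobp, Cst7, Clec7a, Lpl, Spp1, Itgax, Axl and Cd9, are hallmark genes of that state. They were taken by gene name from the 24391 gene names counted in the hippocampus, and all 10 were found. Total RNA of bilateral whole hippocampus was sequenced from 10 male mice of a single batch, 10 to 14 weeks old (strain printed as C56BL/6J in the methods), with 1 library per mouse. In the SAH group (4 mice, numbered 1 to 4) the circle of Willis was perforated on 1 side with a filament to produce a subarachnoid hemorrhage, and only mice with a strong drop of cerebral blood flow at perforation were kept. Sham mice (3, numbered 5 to 7) had the filament advanced and withdrawn without the perforation, and Naive mice (3, numbered 8 to 10) had no surgery. Tissue was taken 4 days after surgery, the labels name no drug and no genetic change in any group.

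As background, TREM2 is a lipid-binding receptor of microglia that signals through the adaptor TYROBP, and full entry into the disease-associated state needs TREM2 in mouse models. Homeostatic genes such as P2ry12 and Tmem119 usually fall as the state is entered. Several members are also made by other cells of the hippocampus: astrocytes make most of the brain's APOE, oligodendrocytes carry the tetraspanin CD9, and macrophages of the brain's borders make osteopontin, the product of Spp1. In whole tissue, more cells of a type and more RNA per cell cannot be told apart.

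Counts summed to between 19743388 and 27254655 per mouse. The 8 neuronal markers, which include Prox1 of the dentate gyrus and Neurod6 of pyramidal cells, summed to between 11806 and 13382 CPM (counts of a gene scaled to the library by TMM) in all mice, and 0 of 8 differed between SAH and control by edgeR. The 8 mature oligodendrocyte markers were all lower in SAH, with summed levels of 4888 to 6262 CPM against 7221 to 10018 CPM. The library of SAH mouse 3 stood apart from the other SAH mice, with a chi-square per degree of freedom of 15.3 to 19.3 in its pairs against 4.28 to 10.7 in pairs without it. Sham mouse 7 and SAH mice 3 and 4 also held far more choroid plexus RNA than the rest, with summed levels of the 8 markers of 843 CPM, 1236 CPM and 872 CPM against 51.3 to 222 CPM in the other 7 mice. Where leaving out SAH mouse 3 or Sham mouse 7 changed which members were called, this is said beside the result.

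Which of these genes were raised after SAH was asked by setting the 4 SAH mice against 6 controls, Sham and Naive together, over all genes with edgeR's quasi-likelihood test. Spp1, Trem2, Tyrobp and Axl were higher in SAH at a Benjamini-Hochberg adjusted p under 0.10, and 0 of the members were lower. The 4 are of 9 members tested, because Cst7 had too few counts to pass the filter on low counts. Among all 14993 genes tested, 3.13% were called higher and 1.54% lower. The median log2 fold change of the 9 members was 0.33, against −0.0024 over all genes tested. Spp1 rose 2.78-fold, whereas the 3 other rises were of 1.15 to 1.27-fold. Without SAH mouse 3, 5 members were called, Clec7a joining the 4, where 2.75% of all genes were called higher. Without Sham mouse 7, 5 were called as well, Cd9 joining the 4, where 3.01% were. Without SAH mouse 1, SAH mouse 4, Naive mouse 9, Sham mouse 5 or Sham mouse 6, 2 were called, Spp1 and Axl. In those fits the share of all genes called higher ran from 1.48% (without SAH mouse 4) to 3.94% (without SAH mouse 1). Without SAH mouse 2, 5 were called, Lpl lower beside the 4, where 2.70% of all genes were called lower. Leaving out Naive mouse 8 or 10 gave 3 calls, where 1.82% and 1.92% were called higher.

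**Figure D1:**
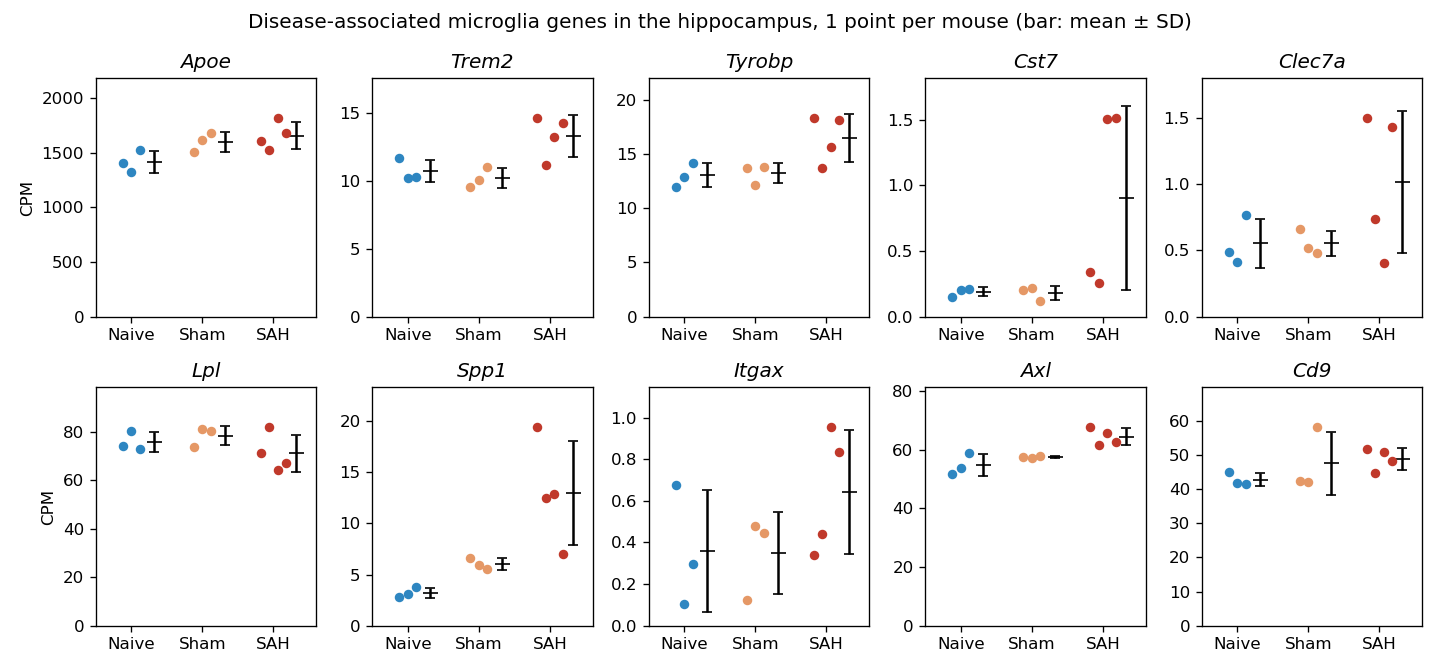
Level of each of the 10 members in CPM, with 1 point per mouse for 3 Naive, 3 Sham and 4 SAH mice and a bar for the mean ± SD of each group. Every axis starts at 0. All SAH mice lie above all control mice for Spp1, Cst7 and Axl, and the Cst7 points of SAH mice fall into a low and a high pair. For Lpl, SAH mouse 2 is the highest of all mice at 82.1 CPM, and the other SAH mice lie below every control mouse.

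Spp1 (mm9, chromosome 5, 104864130 to 104870072, plus strand) encodes osteopontin, a secreted phosphoprotein that binds integrins and CD44. It had 19.4, 12.5, 12.9 and 7.05 CPM in SAH mice 1 to 4, from 402, 338, 257 and 177 counts. In Sham mice it had 6.63, 5.93 and 5.52 CPM, and in Naive mice 2.82, 3.08 and 3.78 CPM. The 3 groups did not overlap in any pair: every Naive mouse lay below every Sham mouse, and every Sham mouse below every SAH mouse. The mean of SAH was 12.97 ± 5.07 CPM (SD, n = 4). For control it was 4.63 ± 1.604 CPM (SD, n = 6). Its log2 fold change was 1.47 (standard error, SE, 0.27, edgeR adjusted p = 0.00978). Its lowest value with a mouse left out was 1.21, without SAH mouse 1, the highest of the 10 mice, and its adjusted p stayed at or under 0.0287 with any mouse left out.

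Trem2 (mm9, chromosome 17, 48485726 to 48491601, plus strand) had 14.6, 11.2, 13.2 and 14.2 CPM in SAH mice 1 to 4. Sham mice had 9.55, 10.1 and 11.003 CPM, and Naive mice had 11.7, 10.2 and 10.3 CPM. Of the 4 SAH mice, 3 lay above all control mice, and SAH mouse 2 lay below Naive mouse 8. Its rise on the log2 scale was 0.35 (SE 0.087, edgeR adjusted p = 0.0534).

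Tyrobp (mm9, chromosome 7, 31198807 to 31202598, plus strand), which encodes the adaptor that carries the signal of TREM2, had 18.3, 13.7, 15.7 and 18.2 CPM in SAH mice 1 to 4. It had 13.7, 12.2 and 13.8 CPM in Sham mice and 12.01, 12.9 and 14.2 CPM in Naive mice. Again 3 SAH mice lay above all control mice, and SAH mouse 2 was within their range. The rise was 0.33 in log2 fold change (SE 0.089, edgeR adjusted p = 0.0716). The calls of both partners were near the threshold: Trem2 lost it in 6 of the 10 fits that left out a mouse (adjusted p up to 0.168) and Tyrobp in 6 of 10 (up to 0.209). Both were lost without SAH mouse 1, SAH mouse 4, Naive mouse 9, Sham mouse 5 or Sham mouse 6. Trem2 was also lost without Naive mouse 10, and Tyrobp without Naive mouse 8.

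Axl (mm9, chromosome 7, 26541519 to 26573752, minus strand), a receptor tyrosine kinase that binds GAS6 and takes part in the uptake of dying cells, had 67.8, 61.8, 65.9 and 62.6 CPM in SAH mice 1 to 4. Sham mice had 57.4, 57.2 and 58.0 CPM and Naive mice 51.8, 53.8 and 58.9 CPM. All SAH mice lay above all control mice, by a small margin. Its log2 fold change was 0.20 (SE 0.048, edgeR adjusted p = 0.0436), and Axl stayed past the threshold with each mouse left out (adjusted p up to 0.0941).

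Cst7 (mm9, chromosome 2, 150396151 to 150404680, plus strand) encodes cystatin F, an inhibitor of lysosomal proteases of immune cells. It was counted 7, 7, 30 and 38 times in SAH mice 1 to 4, 5, 6 and 3 times in Sham mice, and 4, 4 and 5 times in Naive mice. In CPM these were 0.339, 0.258, 1.51 and 1.51 in SAH, against 0.121 to 0.221 in the 6 control mice. All SAH mice were above all control mice, but SAH mice 1 and 2 by a few counts only. Without the filter on low counts, the log2 fold change of Cst7 was 2.24 (SE 0.49, edgeR adjusted p = 0.0248). It was 1.91 without SAH mouse 3 (adjusted p = 0.057), 2.15 without Sham mouse 7 (adjusted p = 0.049) and 1.84 without SAH mouse 4, where the call was lost (adjusted p = 0.131). Counting Cst7, all SAH mice were above all control mice for 3 of the 10 members, and for 2 of the 9 tested, a separation found for 2.83% of all genes tested.

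The promoters of these raised genes are shown because the transcription factor PU.1, encoded by Spi1, is a lineage factor of microglia and macrophages whose core motif reads GAGGAA. Sequences are from RefSeq (GRCm38.p6), from 250 bases before to 50 after the gene's start, written 5′ to 3′ on the gene's strand, with matches to GAGGAA on either strand in capitals. Of the 10 members, 8 had an entry, with 12 promoters in all, and Tyrobp and Lpl had none. Spp1 has 2 entries, and that of the upstream start is shown.
Spp1 (chr5:104434861-104435160, plus strand): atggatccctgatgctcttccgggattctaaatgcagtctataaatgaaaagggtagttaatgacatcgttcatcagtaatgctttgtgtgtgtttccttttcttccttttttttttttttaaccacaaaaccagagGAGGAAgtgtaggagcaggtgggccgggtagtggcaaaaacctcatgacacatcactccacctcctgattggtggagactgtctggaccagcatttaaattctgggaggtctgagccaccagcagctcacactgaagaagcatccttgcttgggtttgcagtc
Trem2 (chr17:48346151-48346450, plus strand): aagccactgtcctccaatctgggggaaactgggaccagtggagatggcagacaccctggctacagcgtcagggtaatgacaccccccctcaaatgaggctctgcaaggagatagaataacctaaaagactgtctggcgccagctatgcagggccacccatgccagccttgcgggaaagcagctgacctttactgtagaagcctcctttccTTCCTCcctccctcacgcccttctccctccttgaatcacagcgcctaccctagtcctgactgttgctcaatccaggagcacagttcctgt
Axl (chr7:25788684-25788983, minus strand): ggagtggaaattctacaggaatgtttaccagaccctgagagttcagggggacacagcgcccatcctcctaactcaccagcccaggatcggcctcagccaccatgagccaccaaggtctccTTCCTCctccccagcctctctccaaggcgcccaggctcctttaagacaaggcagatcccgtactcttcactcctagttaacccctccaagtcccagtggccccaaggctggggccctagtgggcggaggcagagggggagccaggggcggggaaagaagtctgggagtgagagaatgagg
Cst7 (chr2:150570165-150570464, plus strand): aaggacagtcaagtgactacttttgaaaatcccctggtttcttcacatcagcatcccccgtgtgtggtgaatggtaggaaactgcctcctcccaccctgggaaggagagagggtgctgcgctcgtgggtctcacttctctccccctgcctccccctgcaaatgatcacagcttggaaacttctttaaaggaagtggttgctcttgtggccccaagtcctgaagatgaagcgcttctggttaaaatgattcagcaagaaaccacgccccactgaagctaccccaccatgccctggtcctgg

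In Spp1 the match lay on the gene's strand, its first base at position −113. In Trem2 it lay on the opposite strand at −40, and in Axl on the opposite strand at −130. Cst7 held no match in this window. The motif was in 7 of the 12 member promoters, belonging to 5 of the 8 genes (the 2 entries of Clec7a overlap and share a match), while 28.3% of all 32851 promoters of the same length held it. The AP-1 motif TGANTCA was in 3 member promoters (Cst7 at −6, Trem2 at −9 and Itgax at −56) and in 7.81% of all. The interferon element GAAANNGAA was in 3 (Spp1, Cd9 and 1 of Apoe) and in 8.56% of all. The E-box CACGTG was in 0 of 12 and in 7.15% of all. Both strands were searched, and matches of different motifs overlapped in 0 cases. A match of letters is a description and does not show a bound site.

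The other 5 members did not pass the threshold. Clec7a (mm9, chromosome 6, 129411609 to 129422797, minus strand) encodes Dectin-1, a receptor for beta-glucans that signals through SYK. It had 1.499, 0.738, 0.402 and 1.43 CPM in SAH mice 1 to 4, 0.659, 0.516 and 0.484 CPM in Sham mice and 0.489, 0.411 and 0.765 CPM in Naive mice. SAH mice 1 and 4 were above all control mice, and SAH mouse 3, with 8 counts, was the lowest of all. In edgeR the log2 fold change was 0.88 (SE 0.33, edgeR adjusted p = 0.189), and it was 1.12 without SAH mouse 3 (adjusted p = 0.0476).

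Itgax (mm9, chromosome 7, 135273082 to 135294171, plus strand) encodes CD11c, the integrin alpha chain of complement receptor CR4. It had 0.339, 0.443, 0.955 and 0.837 CPM in SAH mice 1 to 4, from 7 to 21 counts, 0.124, 0.479 and 0.443 CPM in Sham mice and 0.678, 0.103 and 0.297 CPM in Naive mice. SAH mice 3 and 4 were above all control mice, and the groups otherwise overlapped. Its log2 fold change of 0.80 had an SE of 0.44 (edgeR adjusted p = 0.381), which is more than the rise of Trem2. Cst7 and Itgax were highest in SAH mice 3 and 4 and Clec7a in SAH mice 1 and 4. SAH mouse 4 was thus high in all 3 genes. Spp1 was highest in SAH mouse 1 and lowest of the SAH mice in SAH mouse 4. SAH mice 3 and 4 were also the SAH mice with the most choroid plexus RNA (1236 and 872 CPM). Sham mouse 7, with 843 CPM of it, had the lowest Cst7 of all mice (0.121 CPM) and 0.443 CPM of Itgax. The part of choroid plexus tissue in these values was not tested.

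Apoe (mm9, chromosome 7, 20281593 to 20284537, minus strand), the main lipid carrier of the brain, had 1610.1, 1527, 1818 and 1678 CPM in SAH mice 1 to 4, 1503, 1617 and 1678 CPM in Sham mice and 1406, 1323 and 1524 CPM in Naive mice. SAH mice were all above the Naive mice and overlapped with the Sham mice. Against control the log2 fold change was 0.14 (SE 0.064, edgeR adjusted p = 0.287).

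Cd9 (mm9, chromosome 6, 125410284 to 125444773, minus strand), a tetraspanin of cell membranes, had 51.9, 44.7, 51.1 and 48.4 CPM in SAH mice 1 to 4, 42.5, 42.1 and 58.3 CPM in Sham mice and 45.0, 42.0 and 41.7 CPM in Naive mice. Sham mouse 7 was the highest of all 10 mice. This mouse also had the highest summed level of the oligodendrocyte markers, 10018 CPM. Of the control mice it had the highest sum of the choroid plexus markers too, 843 CPM. The part of either cell type in its Cd9 level was not tested. Cd9 had a log2 fold change of 0.12 (SE 0.089, edgeR adjusted p = 0.538), and it was 0.20 without Sham mouse 7 (adjusted p = 0.0764).

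Lpl (mm9, chromosome 8, 71404454 to 71430831, plus strand), a lipase that frees fatty acids from lipoproteins, was the only member tested with a negative log2 fold change, −0.11 (SE 0.062, edgeR adjusted p = 0.387). It had 71.2, 82.1, 64.5 and 67.1 CPM in SAH mice 1 to 4, 73.8, 81.1 and 80.5 CPM in Sham mice and 74.3, 80.5 and 72.8 CPM in Naive mice. SAH mouse 2 was the highest of all mice and the other 3 SAH mice were the lowest, below every control mouse. Without SAH mouse 2 the value was −0.19 (adjusted p = 0.0752).

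Per length of exon, the members spanned a wide range of levels. In the 6 control mice, Apoe had a mean of 951 CPM per kb, Cd9 38.0, Tyrobp 23.2, Lpl 19.1, Axl 11.1, Trem2 9.13 and Spp1 2.79 CPM per kb. Clec7a (0.243 CPM per kb), Cst7 (0.189 CPM per kb) and Itgax (0.0879 CPM per kb) were lowest. From Apoe to Clec7a, neighbours in this order did not overlap among control mice, whereas Clec7a overlapped with Cst7 and Cst7 with Itgax. Apoe alone took 86.7% to 88.9% of the members' summed counts in each mouse.

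Whether the rise was already present after surgery alone was asked by setting SAH, Sham and Naive apart in a single fit. Against Sham mice, 0 of 9 members passed the threshold, while 0.529% of 15134 genes were called higher. At an unadjusted p under 0.05, 4 members differed in edgeR, as did 9.69% of all genes, and DESeq2 called 2 members higher, Trem2 and Spp1, and 1.49% of all genes. Spp1 was nearest in edgeR, at 1.10 on the log2 scale (SE 0.26, adjusted p = 0.107), and it passed without the filter on low counts (adjusted p = 0.0564). Trem2, whose SAH mice all lay above the Sham mice, had 0.38 (SE 0.11, edgeR adjusted p = 0.201). Without SAH mouse 3 or 4 Spp1 was called, where 1.10% and 0.12% of all genes were called higher. Without SAH mouse 2 Trem2 was called, where 1.04% of all genes were called higher.

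Against Naive mice, 2 of 9 members were called higher, Spp1 and Axl, among 2.03% of all genes tested. Spp1 was 4.00-fold higher, by 2.00 on the log2 scale (SE 0.28, edgeR adjusted p = 0.00435). For Axl the value was 0.23 (SE 0.057, edgeR adjusted p = 0.065). In the fit of SAH and Naive mice alone, Spp1 was the only member called, where 1.34% of all genes were called higher. Spp1 was also the only one when SAH mouse 1, Sham mouse 6 or Naive mouse 8 or 9 was left out. The share of all genes called higher then ran from 0.570% (without Naive mouse 8) to 2.31% (without SAH mouse 1). Without SAH mouse 2, Apoe, Trem2 and Tyrobp were called too, where 2.94% of all genes were called higher, and without SAH mouse 3 or Sham mouse 7 the calls were Spp1 and Axl. DESeq2 called Apoe as well, where it called 3.09% of all genes higher, and so did edgeR without the filter (1.80%) or with library size alone (2.31%). The comparisons with Sham and with Naive share the SAH mice.

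Between Sham and Naive mice, 0 of 9 members were called by edgeR and 0 by DESeq2, and of all genes tested 0.00661% were called in edgeR, a single gene. Spp1 and Apoe were the 2 members with an unadjusted p under 0.05, which 2.02% of all genes had. The value of Spp1 was 0.90 (SE 0.30, edgeR adjusted p = 1.00), although all 3 Sham mice lay above all 3 Naive mice, a separation in this direction shown by 4.86% of the genes tested. Apoe had 0.17 (SE 0.069, edgeR adjusted p = 1.00), with overlap.

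**Figure D2:**
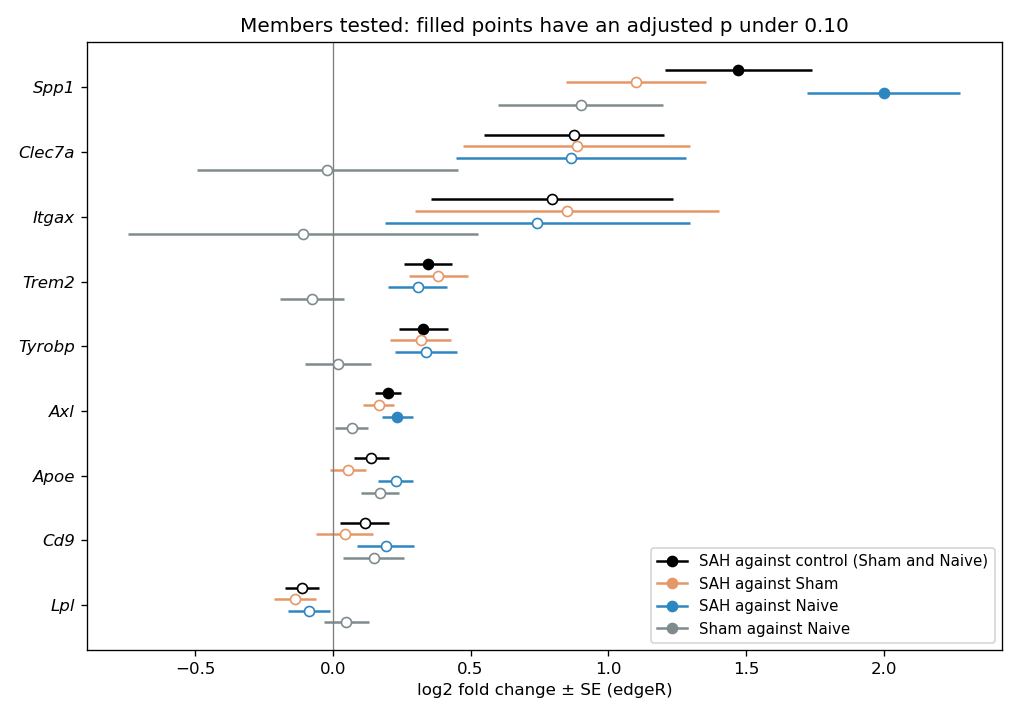
Log2 fold change ± standard error (edgeR) of the 9 members tested, for SAH against control, SAH against Sham, SAH against Naive and Sham against Naive, with filled points at an adjusted p under 0.10. Spp1 has the largest values, 2.00 against Naive and 1.10 against Sham, and the bars of Clec7a and Itgax are the widest, at 2 to 36 counts per mouse.

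The state is also marked by many other genes, and 22 of them were listed, of which 21 were among the gene names and 19 were tested. In SAH against control, 9 of the 19 were higher and 0 lower, with a median log2 fold change of 0.26. Lyz2, which encodes lysozyme, rose most, by 1.77 on the log2 scale (SE 0.12, edgeR adjusted p = 1.47e-05). Its mean was 17.2 ± 3.39 CPM (SD, n = 4) after SAH against 5.01 ± 0.552 CPM (SD, n = 6). Cd52, a glycoprotein of leukocytes, rose by 1.07, B2m, the light chain of MHC class I, by 0.84, and Gpnmb, a glycoprotein of lysosomes, by 0.81. The cathepsins Ctsz, Ctsd and Ctsb rose by 0.49, 0.30 and 0.13, the endosomal protein Cd68 by 0.30 and the growth factor Igf1 by 0.26. Of those not past the threshold, the most abundant per length were Fth1, the ferritin heavy chain, with 0.09, and Timp2, an inhibitor of metalloproteinases, with −0.17. The count was 6 without SAH mouse 3, 5 without Sham mouse 7, SAH mouse 4, Naive mouse 10 or Sham mouse 5, 4 without Naive mouse 8 or 9, and 11 by DESeq2. In the pairwise comparisons, 2 of the 19 were higher against Sham and 4 against Naive, as were 0.529% and 2.03% of all genes.

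Among signalling partners of TREM2, TYROBP and Dectin-1, 1 of 13 genes tested was higher, Inpp5d, which encodes the phosphatase SHIP1, at 0.38 on the log2 scale (SE 0.094, edgeR adjusted p = 0.0526). The median of the list was 0.20. Adam10, a protease that sheds TREM2, had 0.05, and Pik3r1, a subunit of PI3 kinase, had 0.01, and neither passed the test. Inpp5d was lost without SAH mouse 3, SAH mouse 4, any 1 of the Naive mice or Sham mouse 5, and 2 genes of the list were called by DESeq2 or without SAH mouse 1 or 2.

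Among carriers, receptors and cofactors of APOE and LPL, 1 of 15 tested was higher, Pltp, which transfers phospholipids between lipoproteins (0.44, SE 0.12, edgeR adjusted p = 0.0811). The median was 0.06, and the most abundant others were Clu (clusterin, 0.13) and Lrp1 (an APOE receptor, 0.15), neither past the threshold. The call of Pltp was lost in the robust fit, in the fit of 3 groups and when SAH mouse 4, any 1 of the Sham mice or Naive mouse 8 or 10 was left out. The count of this list was 3 without SAH mouse 2 and 2 without SAH mouse 1 or 3. Of 14 ligands and partners of AXL, SPP1, ITGAX and CD9, 3 were higher. They were Pros1, which encodes protein S, a ligand of the AXL family (0.68, SE 0.095, edgeR adjusted p = 0.0032), Icam1, an integrin ligand of endothelium and leukocytes (0.80), and Itgb5, an integrin chain (0.28). The median of these 14 was 0.13, and 5 were called by DESeq2 or without SAH mouse 2. The tetraspanin Cd81 (−0.04) and its partner Igsf8 (−0.10) were the most abundant of the rest and did not pass the test.

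**Figure D3:**
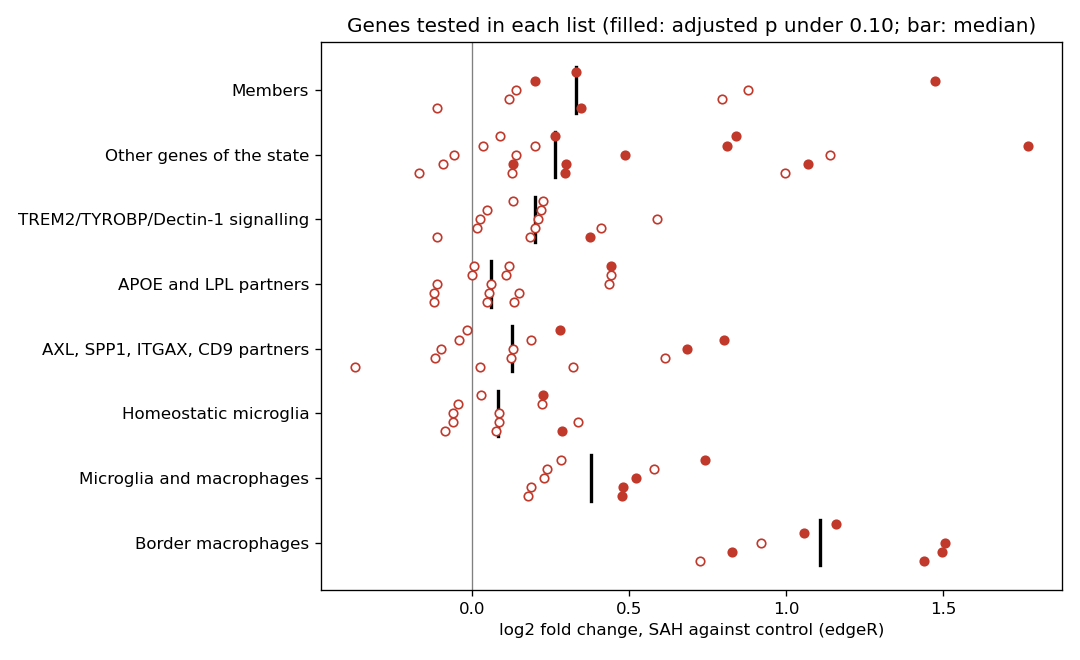
Log2 fold change in SAH against control (edgeR) of every gene tested in 8 lists, with filled points at an adjusted p under 0.10 and a bar at the median. The medians run from 0.06 for the APOE and LPL partners to 1.11 for the border macrophage markers, and the members have a median of 0.33.

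Markers of microglia and of other macrophages were measured beside the members. Of 12 homeostatic microglia genes, 2 were higher and 0 lower, with a median log2 fold change of 0.08. Csf1r, the receptor that microglia need to survive, rose by 0.29 (edgeR adjusted p = 0.026). P2ry12, a purinergic receptor, had −0.05 and Fcrls, an Fc receptor-like gene, had 0.22, and neither passed the test. The summed level of the 12 genes was 499 to 621 CPM in SAH and 478 to 534 CPM in control, with overlap. Without SAH mouse 3, 4 of the 12 were called higher, without SAH mouse 4, 0 were, and without Naive mouse 8, 1 was. In the pairwise comparisons, 0 of the 12 were higher against Sham and 1 against Naive.

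Genes of microglia and macrophages in general had a median of 0.38, and 4 of 10 were higher, namely Ctss, a cathepsin (0.74), and the complement genes C1qa (0.52), C1qb (0.48) and C1qc (0.48). Laptm5 (0.19) and Fcer1g (0.28) did not pass the test. The summed level of the 10 genes was 303 to 445 CPM in SAH and 256 to 302 CPM in control. In the pairwise comparisons, 0 of the 10 were higher against Sham (4 without the filter on low counts) and 4 against Naive.

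Border-associated macrophages, which live in the meninges, around vessels and in the choroid plexus, were marked by 8 genes, of which 6 were higher: Cd163 (1.51), F13a1 (1.49), Ms4a7 (1.44), Pf4 (1.16), Mrc1 (1.06) and Stab1 (0.83). In the pairwise comparisons, 4 of the 8 were higher against Sham and 6 against Naive. The median of the list was 1.11 in SAH against control. Its summed level was 45.4, 37.1, 51.3 and 48.5 CPM in SAH mice 1 to 4, 24.7 to 25.6 CPM in Sham mice and 20.1 to 21.6 CPM in Naive mice, an order of groups shared with Spp1. Within SAH the order differed, since SAH mouse 4 had the lowest Spp1 and the second highest sum. Of the 6 meningeal fibroblast markers 5 were higher (3 without SAH mouse 1, 2 or 4, any 1 of the Naive mice or Sham mouse 5), and 3 each of the 6 endothelial and the 6 mural markers. The part of these cells in the members' values was not tested.

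The 6 T cell genes summed to at most 0.916 CPM and 5 neutrophil genes to at most 1.26 CPM in any mouse. The 8 monocyte and dendritic cell genes summed to 11.7 to 14.7 CPM in SAH and 11.4 to 13.2 CPM in control, mostly from Flt3 and Zbtb46, the 2 that were tested, and 0 were called. Flt3 had a log2 fold change of −0.01 and Zbtb46 of 0.06. Without the filter, 2 of the 8 were called higher, Ccr2 and Ly6c2, both monocyte genes named here after their values were seen. Ccr2 lay between 0.101 and 1.55 CPM in SAH and between 0.0513 and 0.221 CPM in control (2.45, SE 0.51, edgeR adjusted p = 0.0177). Ly6c2 lay between 0.101 and 0.184 CPM in SAH and was at most 0.0425 CPM in control (edgeR adjusted p = 0.0672), with 5 counts or fewer in any mouse. Their part in the values of Cst7 and Itgax was not tested.

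**Figure D4:**
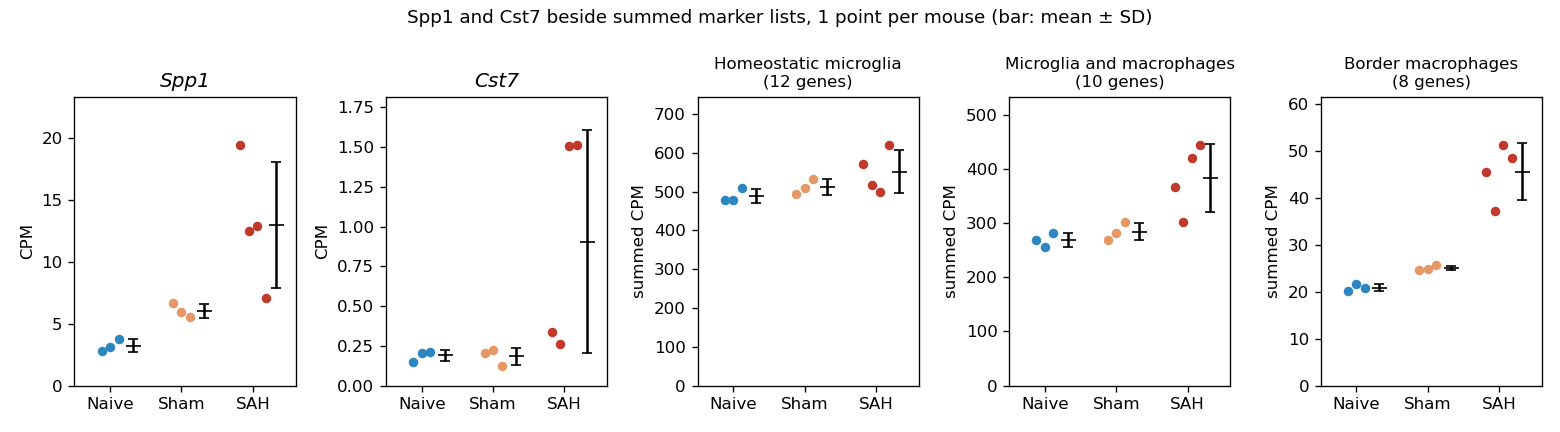
Spp1 and Cst7 in CPM and the summed CPM of 12 homeostatic microglia genes, 10 genes of microglia and macrophages and 8 border macrophage genes, with 1 point per mouse and a bar for the mean ± SD of each group. The border macrophage sum and Spp1 share the order Naive, Sham, SAH without overlap, while the homeostatic sum overlaps between SAH and control.

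Homeostatic genes usually fall as the state is entered, and several members are also made by other cells. Their summed level is therefore not a measure of the microglia present, and whether members rose beyond it cannot be read here. As a description, each gene was tested against the summed count of the 12 homeostatic genes in place of the library size. This scaling moved the median of all genes to −0.14, with 2.68% of genes called higher and 16.7% called in either direction. Of the 9 members, 2 were called, Spp1 higher and Lpl lower. Spp1 was higher per unit of homeostatic RNA, at 1.36 on the log2 scale (SE 0.23, edgeR adjusted p = 0.0017). Its counts were 3.40%, 2.41%, 2.59% and 1.14% of the summed homeostatic count in SAH mice 1 to 4, against 1.34%, 1.17% and 1.03% in Sham mice and 0.591%, 0.642% and 0.742% in Naive mice. On this scale SAH mouse 4 fell within the range of the Sham mice. Lpl was called lower (−0.24, SE 0.092, edgeR adjusted p = 0.0949), which is −0.11 relative to the median of all genes. Its call was lost without SAH mouse 1 or 4, any 1 of the Naive mice, or Sham mouse 5 or 6, without SAH mouse 2, Trem2, Tyrobp and Clec7a were called higher beside Spp1 (3.31% of all genes were), and without SAH mouse 3, Clec7a was (2.69% of all genes were). Trem2 (0.20, adjusted p = 0.173), Tyrobp (0.18, adjusted p = 0.173), Clec7a (0.71, adjusted p = 0.119) and Axl (0.07, adjusted p = 0.549) did not pass the threshold on this scale. Relative to the median of all genes, these 4 had 0.34, 0.32, 0.85 and 0.21, against 0.35, 0.33, 0.88 and 0.20 scaled to the library. Cst7, without the filter, had 2.09 per unit of homeostatic RNA (edgeR adjusted p = 0.00382). Scaled to the 10 genes of microglia and macrophages in general, Spp1 was again called higher, among 1.68% of all genes. That scaling moved the median of all genes to −0.45 and called 82.9% of them lower, Apoe, Lpl, Cd9 and Axl included, so nothing is read from those lower calls.

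**Figure D5:**
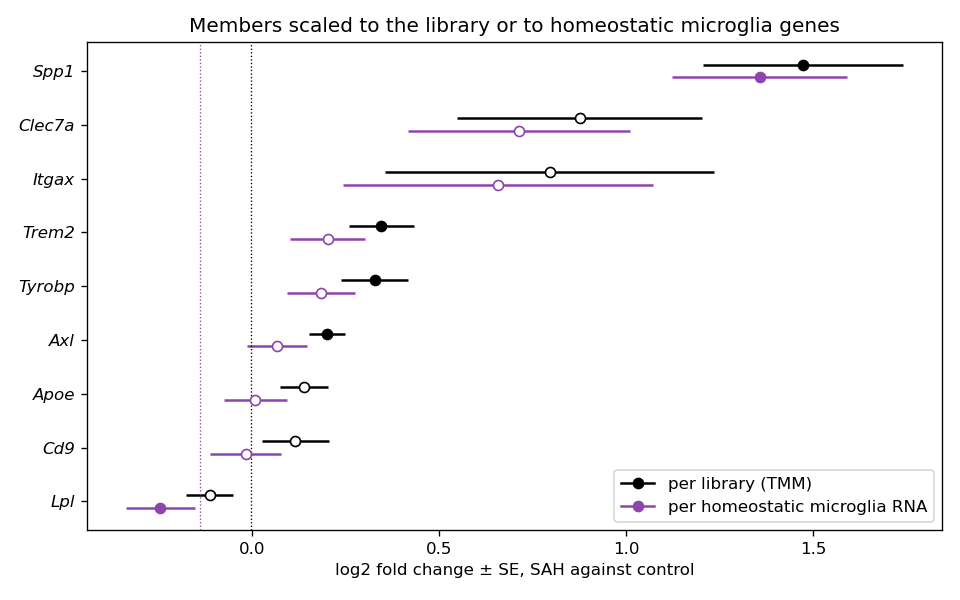
Log2 fold change ± standard error of the 9 members tested in SAH against control, scaled to the library (TMM) or to the summed count of the 12 homeostatic microglia genes, with filled points at an adjusted p under 0.10 and dotted lines at the median of all genes tested (−0.0024 and −0.14). Spp1 is past the threshold on both scales, and Trem2, Tyrobp and Axl on the first only.

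The genes most like each member across the 10 mice were found by Pearson's r of log2 CPM, as a description over points that share the differences between groups. Spp1 was most like Sphk1, a sphingosine kinase (r = 0.948, Spearman's rho = 0.879), Maoa, a monoamine oxidase (r = 0.947, rho = 0.915), and the mannose receptor Mrc1 (r = 0.937, rho = 0.891), a border macrophage marker. Trem2 was most like Adgre1, which encodes the macrophage antigen F4/80 (r = 0.944, rho = 0.818), followed by Grn, which encodes progranulin (r = 0.940, rho = 0.879), and the collagen gene Col12a1 (r = 0.935, rho = 0.830). Tyrobp was most like Cd34 (r = 0.957, rho = 0.903), Alox5ap (r = 0.940, rho = 0.830) and Tlr3 (r = 0.938, rho = 0.915). The genes most like Axl and Apoe were Araf (r = 0.971) and Rpl7 (r = 0.968), and those most like Clec7a, Itgax and Cd9 were Gucy2g (0.947), Malt1 (0.935) and Vamp8 (0.917). Between members, r was 0.82 for the receptor pair Trem2 and Tyrobp, 0.91 for Spp1 and Axl, and 0.27 for Spp1 and Itgax. Lpl had a negative r with all 8 other members tested, between −0.26 and −0.69.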

How the data were processed

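Counts of the 10 mice were used as the authors deposited them. Per the file headers and the study's methods, the authors aligned read pairs from ribosome-depleted, stranded libraries to mm9 with STAR and counted them per gene name with featureCounts 1.6.2 (paired, reverse strand), leaving out reads that touched several genes. The exons of the members overlapped no other gene name.

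In R 4.3.3, edgeR 4.0.16 was used with TMM scaling, filterByExpr (minimum count 10, minimum total 15), quasi-likelihood tests and Benjamini-Hochberg adjustment over all genes, with a threshold of 0.10. Standard errors were the log2 fold change over the square root of F. SAH against control was a fit of 2 groups, and the pairwise comparisons a fit of 3. For log2 CPM the prior count was 2. P-values rest on the spread between separate mice. Scripts were tested on simulated data. DESeq2 1.42.0, other scalings, filters and thresholds, and each mouse left out in turn were alternatives.

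All 10 members are given. Of the other lists, genes past the threshold and the 2 most abundant per length of the rest could be named, and some genes are not reported here. The members and lists were chosen with earlier results of these data known. List counts under the alternatives and the fits of Cst7 with a mouse left out were added after seeing the data. No pair of libraries within a group was a duplicate (chi-square per degree of freedom of 4.09 or more). The figures were drawn with matplotlib 3.10.9.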

Additional observations from a re-analysis of the deposited data

Results flagged for a closer look

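Within each group of 4 to 6 mice, the members' CPM and the summed CPM of each list were searched for a single mouse far from the rest (56 groups of values, of which chance flags about 1 in 20), and 3 were found. Among the 6 control mice, Sham mouse 7 had 58.3 CPM of Cd9, with the next at 45.0 CPM. The same mouse had 843 CPM of summed choroid plexus markers, with the next control mouse at 218 CPM. Among the 4 SAH mice, SAH mouse 4 had 155 CPM of summed pericyte and smooth muscle markers, with the next at 113 CPM.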

How the results depend on the processing

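For SAH against control, 4 members were called, and 4 or 5 under DESeq2, its size factors, library size alone, no filter, a minimum of 10 counts in each mouse, a robust fit and the fit of 3 groups. At an adjusted p under 0.05 the count was 2 (Spp1 and Axl), where 2.46% of all genes were called (4.68% at 0.10), and it ran from 2 to 5 with each mouse left out, where the share of all genes ran from 2.05% to 7.25%. Against Sham the count of 0 became 2 with DESeq2 and 1 with no filter, and ran from 0 to 1 with a mouse left out. Against Naive the count of 2 (2.99% of all genes were called) became 1 at an adjusted p under 0.05 (1.72%) and 1 with only the mice of the 2 groups (1.89%). It became 3, Apoe added, with DESeq2 (4.92%), no filter (2.65%) or library size alone (3.15%). It ran from 1 to 5 with a mouse left out, where the share of all genes ran from 0.714% to 4.53%. Between Sham and Naive it was 0 under all alternatives run. Relative to the homeostatic genes, the count of 2 (16.7% of all genes were called) became 1 at an adjusted p under 0.05 (5.64%). It became 5 with the offset from microglia and macrophages in general (1 higher and 4 lower, where 84.6% of all genes were called). The offset from the mean log2 CPM gave 1 (2.31%). It ran from 1 to 5 with a mouse left out, where the share of all genes ran from 3.26% to 41.4%. The cause of these changes was not tested. With Sham mice alone as control Spp1 had 1.10 and was not called (edgeR adjusted p = 0.27), and with either control group alone Trem2, Tyrobp and Axl were not. Over all genes, edgeR called 109 against Sham, DESeq2 302, edgeR without the filter 182, at an adjusted p under 0.05 49 and with only the mice of the 2 groups 12, and the count ran from 6 (without Sham mouse 6) to 215 (without SAH mouse 3). Scaled to the library, no member tested changed its direction in SAH against control under any alternative run. Few counts limit Cst7, Clec7a and Itgax, which had 2 to 38 counts per mouse. No paired analysis was possible because the groups share no animal numbers.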

Other observations

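Astrocyte markers, which belong to the cells that make most APOE, were called in 1 of 8 cases (2 by DESeq2 or without SAH mouse 2 or Sham mouse 5). Gfap, the intermediate filament of reactive astrocytes, had a mean of 810 ± 263 CPM (SD, n = 4) after SAH against 406 ± 44.4 CPM (SD, n = 6), a rise of 1.00 on the log2 scale (edgeR adjusted p = 0.00535). The other 7 astrocyte markers did not pass the test in edgeR with all mice, and the 2 most abundant per length of them, Slc1a2 and Slc1a3, had −0.03 and 0.02. The 8 oligodendrocyte markers fell in SAH by 0.50 to 0.73 on the log2 scale, among them Mog, Mag and Mbp, and all 8 were also called with each mouse left out.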
